A study of Mus musculus with 17 samples.

Results

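The comparison described here is that of Tsc1 knockout with control cortex at 4 weeks of age. Its libraries were taken by their labels: 5 labelled Tsc1CKO and 5 labelled Control, 10 of the 17 in the series. The knockout mice carried mGfapCre and a conditional Tsc1 allele (mGfapCre+:Tsc1CKO), and the controls were littermates that also carried the Cre transgene (mGFAPCre+ littermate control). Cre recombinase in this line is driven by the mouse Gfap promoter, so deletion was limited to cells in which that promoter has been active. The RNA of all other cells in the tissue was sequenced with theirs. Both groups had a mixed Bl6/129S background, and the tissue, frozen before extraction, was the upper part of parietal and somatosensory cortex. The remaining 7 libraries, 4 Tsc1CKO and 3 Control at 15 weeks, are used only where an effect is set beside its value at the later age.

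Tsc1 encodes hamartin, which forms a complex with tuberin, the product of Tsc2. The complex turns off the small GTPase Rheb and so restrains mTOR complex 1, the kinase that couples growth factors and amino acids to protein and lipid synthesis and holds back lysosome biogenesis and autophagy. In tuberous sclerosis the loss of either gene releases this brake, and in the brain astrocytes and neurons enlarge and seizures are common. Astrocytes supply neurons with lipids and take up glutamate and potassium, functions that several of the gene groups below represent.

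Counts per library ran from 13492007 to 24583430, and 14754 genes were high enough to be tested. Values are CPM, read counts per 1000000 counts of a library, scaled by TMM factors, and differences are log2 fold changes, Tsc1CKO over Control, with the standard error (SE) of edgeR's quasi-likelihood fit. Where 5 values of a group are given, they stand in the order of replicates 1 to 5. A gene was called, and is said to have risen or fallen, at a Benjamini-Hochberg adjusted p under 0.05. The mean log2 CPM of 23 excitatory neuron markers was between 7.50 and 7.70, and that of 5 ependymal and choroid plexus markers between 0.67 and 1.46. Markers of upper cortical layers lay between 5.91 and 6.17 and those of other brain regions between 3.30 and 3.66. Deep layer markers varied more, from 3.59 in Tsc1CKO replicate 4 to 4.57 in Control replicate 4, and their part in the results was not tested. The pituitary hormone gene Gh, which cortex should lack, ranged from 0.0415 to 96.2 CPM in controls and from 1.26 to 353 CPM in Tsc1CKO. The labels do not state whether libraries of a group come from different mice, and p-values then rest on a spread between libraries that may be technical. In bulk tissue, more cells of a type and more RNA per cell cannot be told apart.

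Libraries that stood apart are named first, because most results below rest on them. On the first principal component of the log2 CPM values, which held 27.2% of the variance, Tsc1CKO replicates 1, 3, 4 and 5 lay between -26 and -9.48 and the controls between 4.7 and 31.8. The library labelled Tsc1CKO replicate 2, at 7.13, lay among the controls. Control replicate 4, at 31.8, lay farthest from the Tsc1CKO libraries and had the lowest level of every glial and vascular marker list except that of oligodendrocyte and myelin genes. Tsc1 itself gave 102, 101, 97, 91.6 and 81.7 CPM in Tsc1CKO and 86.9, 93.9, 91.7, 100.4 and 102 CPM in controls. The mean log2 difference was -0.0069 (two-sided exact permutation p = 0.944, with 0.00794 the smallest the design allows), and the groups overlapped. The whole-gene count does not check the genotype labels, since the deleted exons are not named in the labels and cells without Cre activity keep their transcript. Tsc2 was at 106 to 127 CPM in Tsc1CKO and 97.3 to 109 CPM in controls (0.13 ± 0.07, adjusted p = 0.301).

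Across all genes tested, edgeR called 6 as higher in Tsc1CKO and 0 as lower, 0.0407% of those tested. An unadjusted p under 0.05 was reached by 1448 on the higher and 1321 on the lower side. Limma voom with quality weights called the same 6 and 0 lower, and DESeq2 called 372 higher (2.79% of 13322) and 222 lower (1.67%), 4.46% in all. With the level of Gh as a covariate edgeR called 0, and the adjusted p of the 6 then lay between 0.0556 and 0.0985. Without Tsc1CKO replicate 2, edgeR called 437 higher and 157 lower, 3.99% of the genes then tested, and without any 1 of the other 9 libraries it called 0 to 3. The 6 genes encode an RNA decay factor, a matrix protein, a lipid enzyme, a putative acetyltransferase, a signalling adaptor and a protein known from muscle.

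Zfp36l2 (mm9 chromosome 17, 84583271 to 84587287, minus strand) encodes a zinc finger protein that binds AU-rich elements and promotes mRNA decay. It was at 36.6, 27.4, 30.7, 30.8 and 33.7 CPM in Tsc1CKO and 20.5, 17.7, 19.4, 20.6 and 19.5 CPM in controls. The lowest Tsc1CKO library, replicate 2, lay above the highest control, and the gene rose by 0.71 ± 0.09 (adjusted p = 0.0105). It kept its call in 9 of 10 fits that each left out 1 library, whereas the other 5 genes kept theirs in 1 to 3. Its relative Zfp36l1 was at 31.7 to 38.4 CPM in Tsc1CKO and 21.1 to 27.3 CPM in controls, again without overlap, and just missed the threshold (0.50 ± 0.08, adjusted p = 0.0512).

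Prelp (mm9 chromosome 1, 135806881 to 135817991, minus strand), a leucine-rich proteoglycan of basement membranes and connective tissue, was at 24.6, 18.1, 28.9, 25.9 and 30.5 CPM in Tsc1CKO and 8.37, 12.3, 13.2, 8.25 and 12.8 CPM in controls. Every Tsc1CKO library exceeded every control, by the least in replicate 2, and the rise was 1.21 ± 0.16 (adjusted p = 0.0254). Acacb (mm9 chromosome 5, 114596544 to 114700770, plus strand) makes malonyl-CoA at the mitochondrial outer membrane, where it inhibits the import of fatty acids for oxidation. Its values were 13.1, 7.79, 15.2, 13 and 12.1 CPM in Tsc1CKO and 6.48, 4.25, 6.04, 3.92 and 5.76 CPM in controls. Replicate 2 again was the lowest Tsc1CKO library and still above all controls (1.21 ± 0.18, adjusted p = 0.0314).

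1700019G17Rik (mm9 chromosome 6, 85849045 to 85854878, minus strand), which RefSeq lists as Nat8f4 of the N-acetyltransferase 8 family, was at 25.7, 16.2, 28.7, 27.7 and 28.7 CPM in Tsc1CKO and 14.4, 13.1, 14, 10.5 and 13.3 CPM in controls. Here 4 Tsc1CKO libraries stood close together, and replicate 2 lay nearer to the controls than to them (0.96 ± 0.14, adjusted p = 0.0314). The Nat8 family sits in a cluster of related genes, so its counts are uncertain. Bcar3 (mm9 chromosome 3, 122122698 to 122233098, plus strand), an adaptor that binds the Cas family of focal adhesion proteins, showed the same order, at 25.3, 19.2, 24.1, 25.8 and 25.4 CPM in Tsc1CKO and 14.1 to 17.3 CPM in controls (0.62 ± 0.10, adjusted p = 0.0314). Cmya5 (mm9 chromosome 13, 93810668 to 93914679, minus strand), named myospryn in muscle, was at 10.1, 7.34, 7.71, 9.46 and 12.1 CPM in Tsc1CKO and 4.13 to 5.46 CPM in controls (0.94 ± 0.15, adjusted p = 0.0413).

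**Figure D1:**
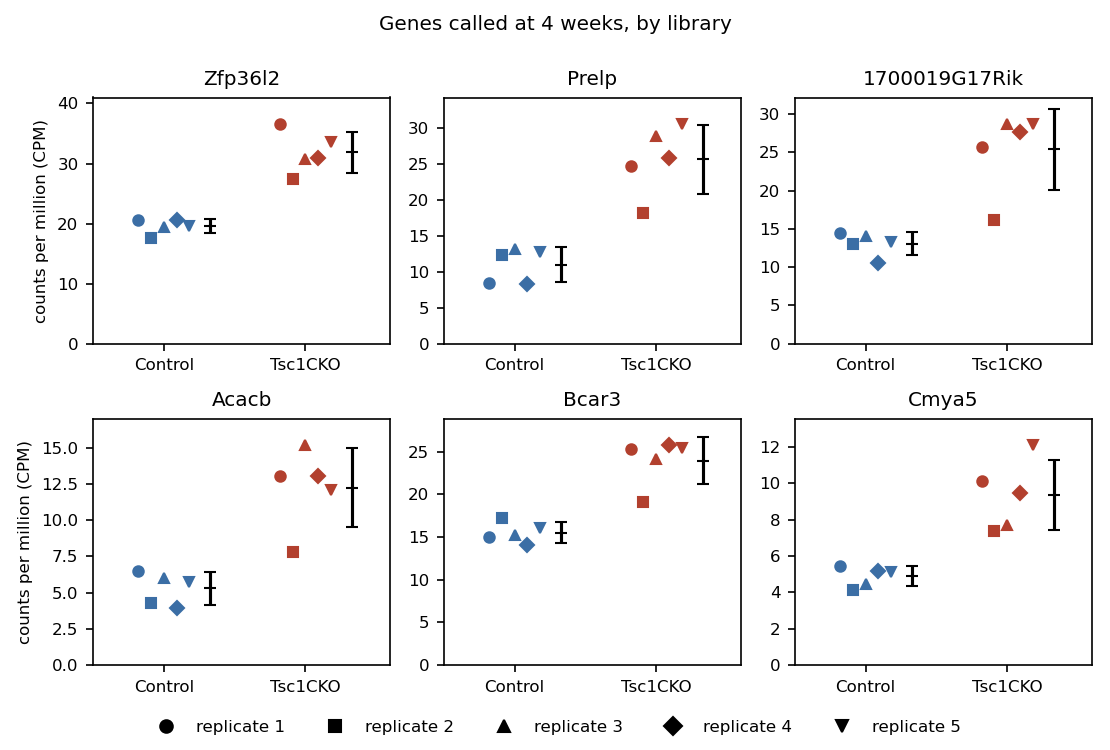
CPM of the 6 called genes in each library at 4 weeks, with Control in blue and Tsc1CKO in red, 1 marker shape per replicate number and the mean ± SD (n = 5) in black. The groups do not overlap for any of the 6, and the square of Tsc1CKO replicate 2 is the lowest red point in each panel.

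The 250 bases upstream of the starts of the 6 called genes were read from RefSeq (GRCm38.p6, the table's build, not mm9). RefSeq gave an entry for 5 of the 6, and whether these genes are regulated together was not tested. Capitals mark matches on either strand to CACGTG, the E-box of the Tfeb and Myc families, TGACGTCA, the cAMP response element, TGATGNAA, an element bound by Atf4, CCAAT, and TTGGCA, one arm of the site of the NFI factors that are abundant in astrocytes. The 4 shown are those of genes with a named protein function, each written 5′ to 3′ up to the base before the start (for Bcar3, the first of its 2 starts).
Prelp (chr1:133921402-133921651, minus strand): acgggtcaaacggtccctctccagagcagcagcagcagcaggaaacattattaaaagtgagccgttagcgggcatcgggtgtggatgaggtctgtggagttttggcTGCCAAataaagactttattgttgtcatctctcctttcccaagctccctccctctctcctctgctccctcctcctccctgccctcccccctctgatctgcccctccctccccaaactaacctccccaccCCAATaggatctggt
Acacb (chr5:114165268-114165517, plus strand): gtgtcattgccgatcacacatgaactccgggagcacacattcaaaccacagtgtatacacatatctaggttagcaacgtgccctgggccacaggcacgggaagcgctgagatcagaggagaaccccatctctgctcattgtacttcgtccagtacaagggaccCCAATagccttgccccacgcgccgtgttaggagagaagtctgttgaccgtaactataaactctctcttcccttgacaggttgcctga
Bcar3 (chr3:122419507-122419756, plus strand): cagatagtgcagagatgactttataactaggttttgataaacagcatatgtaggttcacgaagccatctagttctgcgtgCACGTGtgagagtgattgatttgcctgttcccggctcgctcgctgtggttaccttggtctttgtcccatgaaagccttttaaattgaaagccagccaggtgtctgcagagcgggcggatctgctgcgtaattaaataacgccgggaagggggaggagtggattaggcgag
Cmya5 (chr13:93144725-93144974, minus strand): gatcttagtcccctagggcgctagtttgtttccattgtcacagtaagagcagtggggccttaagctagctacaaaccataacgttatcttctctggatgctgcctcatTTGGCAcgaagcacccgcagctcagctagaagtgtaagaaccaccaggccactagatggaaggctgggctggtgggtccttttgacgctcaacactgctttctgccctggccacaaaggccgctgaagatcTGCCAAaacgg

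In Prelp the capitals are an NFI arm and a CCAAT box, in Acacb a CCAAT box and in Bcar3 an E-box. In Cmya5 they are 2 separate NFI arms on opposite strands. The NFI arm was found in 3 of the 5 genes and 12.3% of the 32851 promoters, and CCAAT in 3 of the 5 genes and 33.9% of the 32851 promoters. CCAAT can overlap the NFI arm, and in 1700019G17Rik, which is not shown, the stretch TGCCAAT gave both matches. The E-box was in 1 of the 5 genes and 6.02% of the 32851 promoters. For every motif, a gene was counted with a match at any of its starts, whereas each promoter is a single start. The gene counts and the percentages are thus not like for like, since 1700019G17Rik and Bcar3 have 2 starts each. The Atf4 element was in 0 of the 5 genes and 3.45% of the 32851 promoters, and the cAMP response element in 0 of the 5 genes and 1.55% of the 32851 promoters. No motif was present in all of the genes. A match is a description of the letters in this window and not a binding site.

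Groups did not overlap for 1.68% of all genes tested in the higher and 1.67% in the lower direction. Among those of them with a mean log2 CPM of at least 1, the 10 largest positive and the 10 lowest negative differences are described, and 3 of the first were called and are given above. Agxt2l1, now Etnppl, an astrocyte enzyme that breaks down phosphoethanolamine, was at 43, 18.5, 53.8, 117 and 65.9 CPM in Tsc1CKO and 9.83, 12.2, 5.72, 5.6 and 9.37 CPM in controls (2.80 ± 0.49, adjusted p = 0.0645). Padi2, which converts arginine to citrulline in proteins, was at 53.7, 23.5, 52.4, 26.8 and 55.6 CPM in Tsc1CKO and 15.8, 14.2, 14.1, 13 and 6.3 CPM in controls (1.76 ± 0.32, adjusted p = 0.0645). In both, the lowest Tsc1CKO value was that of replicate 2, and the Tsc1CKO libraries spread over more than the whole control range. Slc7a11, the cystine and glutamate exchanger, was at 233, 112, 216, 204 and 266 CPM in Tsc1CKO and 104, 108, 92.5, 54 and 107 CPM in controls (1.15 ± 0.24, adjusted p = 0.0817). Replicate 2 barely cleared the controls, and Control replicate 4 lay far below the others.

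The other large positive differences were those of the retinoid enzymes Rdh5 (1.06 ± 0.22, adjusted p = 0.0613) and Bco2 (0.95 ± 0.19, adjusted p = 0.0583), the Wnt and FGF antagonist Shisa2 (1.09 ± 0.22, adjusted p = 0.0583) and the predicted gene Gm4980 (0.96 ± 0.19, adjusted p = 0.0583), besides Prelp, Acacb and 1700019G17Rik. Negative differences were smaller. The 10 lowest lay between -0.70 for Pih1d2, a factor of dynein assembly, and -0.49 for Arl1, a GTPase of the Golgi, and 0 of them passed the edgeR test. DESeq2 called all 10, while an unadjusted p under 0.05 and groups without overlap were conditions of their choice. Serpini1, the neuronal protease inhibitor neuroserpin, was at 212, 333, 327, 291 and 309.5 CPM in Tsc1CKO and 464, 444, 406, 459 and 351 CPM in controls (-0.53 ± 0.12, adjusted p = 0.0663). All 5 Tsc1CKO values lay under the lowest control, as that choice required, and replicate 2 was the highest of them. Pih1d2, Lrrc6 (-0.53 ± 0.15, adjusted p = 0.0966) and Dnahc6 (-0.52 ± 0.14, adjusted p = 0.0976) are genes of ciliary dynein. Pigf (-0.57 ± 0.13, adjusted p = 0.0773) acts in GPI anchor synthesis, and Hrasls (-0.55 ± 0.11, adjusted p = 0.0583) belongs to a family of phospholipid-modifying enzymes. The remaining members were Tmem232 (-0.60 ± 0.16), Fam26e (-0.57 ± 0.12) and Znhit3 (-0.49 ± 0.12).

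Lif, a cytokine of the interleukin-6 family that acts on astrocytes, was chosen after its values were seen because it stood next to the threshold. It was at 1.91, 1.21, 2.09, 0.894 and 1.46 CPM in Tsc1CKO and 0.437, 0.396, 0.636, 0.346 and 0.498 CPM in controls. These are low values, and the groups did not overlap (1.71 ± 0.29, adjusted p = 0.0512). Since the gene was chosen on these values, neither the separation nor the p is separate support. DESeq2 gave no adjusted p for it. Vcl, the focal adhesion protein vinculin, was chosen in the same way and was at 57.8 to 80.8 CPM in Tsc1CKO and 44.5 to 56.9 CPM in controls (0.54 ± 0.09, adjusted p = 0.0583).

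How far each library followed its group was measured on genes that the library had not helped to choose. Each of the 10 was left out in turn, the 300 genes with the smallest p in each direction were taken from the fit of the other 9, and the left-out library was placed between the control mean, at 0, and the mean of the Tsc1CKO libraries, at 1. On the genes higher in Tsc1CKO, replicates 1, 3, 4 and 5 had median positions of 1.27, 0.93, 1.06 and 1.08. Tsc1CKO replicate 2 had a median position of 0.14 (quartiles -0.046 and 0.32), within the control values of 0.15, 0.32, 0.32, -0.54 and 0.35 for replicates 1 to 5. Control replicate 4 alone among the controls lay on the far side of the control mean. On the genes lower in Tsc1CKO the order was less clear: Tsc1CKO replicates 1 to 5 were at 1.68, 0.37, 0.78, 0.58 and 0.50 and controls at -0.14, 0.13, 0.45, -0.23 and 0.58. There Control replicate 5 reached the positions of Tsc1CKO replicates 4 and 5, and Control replicate 3 exceeded Tsc1CKO replicate 2. These positions are a description of single libraries and carry no test.

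**Figure D2:**
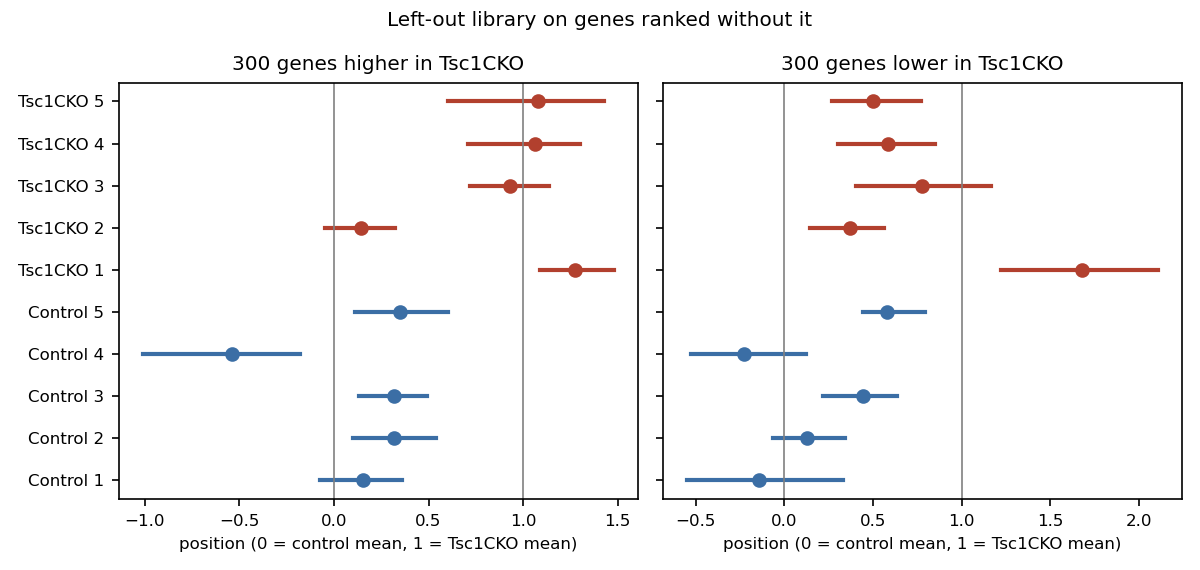
Position of each left-out library on the 300 genes higher (left) and the 300 genes lower (right) in Tsc1CKO in the fit of the other 9 libraries, with the median as a point and the quartiles as a line. The grey lines mark the control mean (0) and the Tsc1CKO mean (1); Tsc1CKO replicate 2 sits at 0.14 in the left panel, among the controls.

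Of the 437 genes called higher without Tsc1CKO replicate 2, 433 were also tested in all 10 libraries. That replicate lay within the control range for 306 of them, above every control for 103 and below every control for 24. Of the 157 called lower, it lay within the control range for 103, below every control for 53 and above every control for 1. Since this library stands apart in the very outcome that is tested, the fit without it is no independent check of the effect. The counts are given so that both readings of the 4-week comparison can be seen.

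The genes on which replicate 2 was at the control level included some of the largest differences between the other libraries. Rnase1, a secreted ribonuclease, was at 10.3, 0.192, 6.34, 5.89 and 9.73 CPM in Tsc1CKO and 0.51, 0, 0.191, 0.692 and 0.415 CPM in controls. Its counts were near 0 in replicate 2 as in the controls, so its fitted difference (4.15 ± 0.87, adjusted p = 0.082) averages a high and a low state. Thbs4, a thrombospondin of the extracellular matrix, was at 13.5, 0.319, 12.3, 6.78 and 10.2 CPM in Tsc1CKO and 0.655, 0.623, 0.508, 0.634 and 1.41 CPM in controls (3.42 ± 0.74, adjusted p = 0.0875). In both genes 4 Tsc1CKO libraries exceeded every control several-fold, while replicate 2 was below the highest control.

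A further 5 genes of this kind were chosen after their values were seen. Bdh2, a dehydrogenase of short-chain hydroxy acids, was at 4.85, 0.958, 4.25, 5.59 and 5.35 CPM in Tsc1CKO and 0.583 to 1.76 CPM in controls. Icosl, a costimulatory ligand of T cells, was at 10.02, 2.68, 8.79, 12.6 and 10.7 CPM against 2.6 to 3.23 CPM. In both replicate 2 fell inside the control range or at its edge. The proprotein convertase Pcsk6 was at 37.2, 12.2, 27.3, 33.5 and 35.5 CPM against 8.59 to 13.4 CPM. Gm5424 was at 38.8, 13, 29.3, 40.8 and 41.6 CPM against 10.6 to 13 CPM, and Thrsp, a regulator of lipid synthesis, was at 70.9, 22.2, 44.2, 86 and 66.3 CPM against 18.6 to 25.9 CPM. Over all 10 libraries none of these 7 passed the edgeR test at 0.05 (adjusted p between 0.0583 and 0.0952). All 7 had an unadjusted p under 0.05 and all 7 were called by DESeq2. For Rnase1 and Thbs4 that call followed from their choice, by fold change in the authors' deposited table of DESeq2 calls. The other 5 were chosen on their values, so the calls of these 7 are no separate support.

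**Figure D3:**
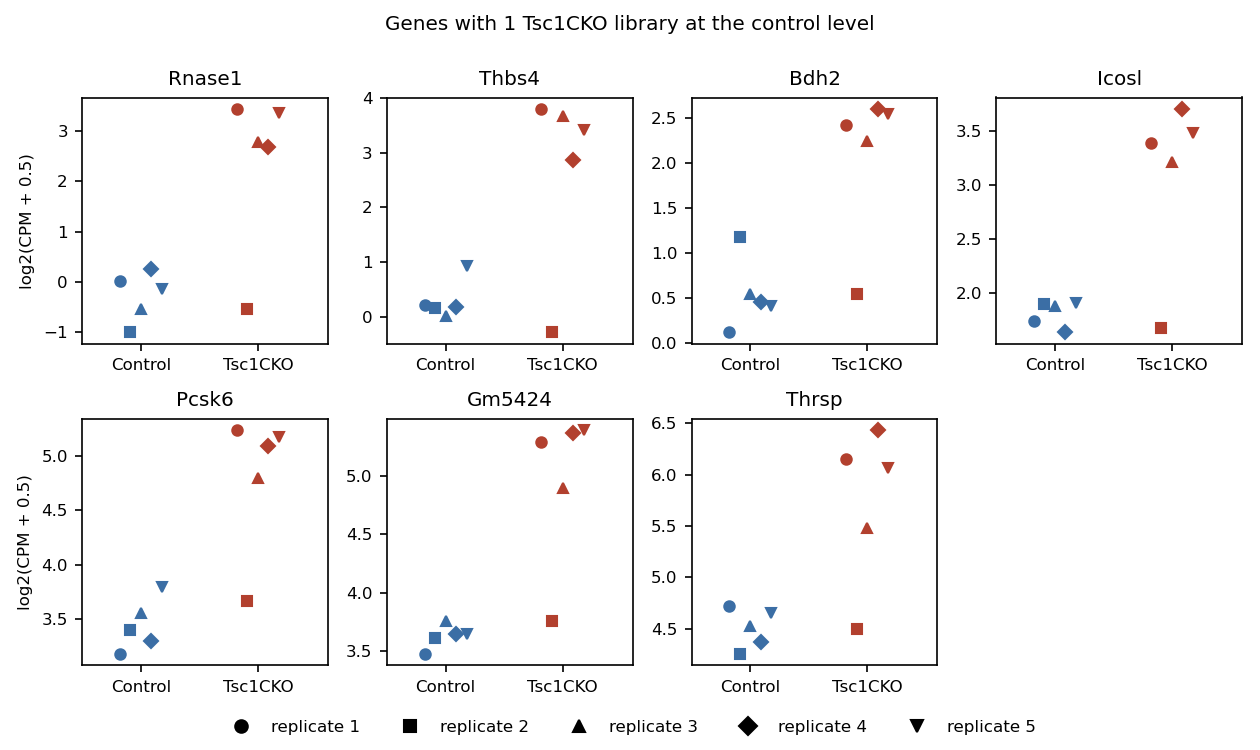
Values of 7 genes in each library as log2(CPM + 0.5), Control in blue and Tsc1CKO in red, with 1 marker shape per replicate number. In every panel 4 red points stand above all blue points, and the red square of Tsc1CKO replicate 2 lies among or next to the blue ones.

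Astrocyte genes as a group stood higher in Tsc1CKO, and their level followed the same libraries. Of 40 astrocyte markers, 39 had positive differences, beside 7528 of all 14754 genes, and the median was 0.37, against 0.46 without Tsc1CKO replicate 2, 0.28 without Control replicate 4 and 0.38 without both. The median of all genes was 0.0042. Counts by list are read against those over all genes, of which 1448 were higher and 1321 lower at an unadjusted p under 0.05 and DESeq2 called 2.79% higher and 1.67% lower. The mean log2 CPM of the list was 7.70, 7.22, 7.45, 7.79 and 7.82 in Tsc1CKO replicates 1 to 5 and 7.23, 7.30, 7.28, 6.71 and 7.16 in Control replicates 1 to 5. Replicate 2 thus fell within the controls and Control replicate 4 was the lowest of the 10. At an unadjusted p under 0.05, 30 were higher, and edgeR called 0, DESeq2 12 and limma voom 0. Without Tsc1CKO replicate 2, 17 of the 40 were called higher, against 2.93% of all genes in that direction.

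Sox9, a transcription factor that specifies astrocytes, was at 57.3, 35.8, 47.2, 47.4 and 41.2 CPM in Tsc1CKO and 33.1, 28.9, 29.4, 20.1 and 16.4 CPM in controls (0.85 ± 0.19, adjusted p = 0.0766). All Tsc1CKO values were above all controls. The lipid phosphatase Ppap2b overlapped in 1 library, replicate 2 (0.51 ± 0.12, adjusted p = 0.0767). Gfap, the filament protein whose promoter drives Cre here, was at 257, 130.2, 250.4, 221 and 251 CPM in Tsc1CKO and 156, 186, 190.0, 71.8 and 195 CPM in controls. Of the Tsc1CKO libraries, 4 were above every control and replicate 2 was below all but 1 of them (0.48 ± 0.28, adjusted p = 0.399). For the water channel Aqp4 the values were 250.1 to 466 CPM and 129 to 279 CPM (0.63 ± 0.21, adjusted p = 0.16). The transporters Slc1a2 (0.30 ± 0.14, adjusted p = 0.276) and Slc1a3 (0.37 ± 0.16, adjusted p = 0.237) and the gap junction gene Gja1 (0.37 ± 0.16, adjusted p = 0.234) also did not pass, and in Control replicate 4 each of these 4 genes was lower than in any other library.

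Reactive astrocyte genes had a smaller median. Of 22, 17 were positive with a median of 0.20, against 0.25 without Tsc1CKO replicate 2, 0.10 without Control replicate 4 and 0.13 without both. The calls were 0 with edgeR, 2 with DESeq2 and 0 with limma voom, while 5 were higher at an unadjusted p under 0.05. The complement gene C4b was at 12.9, 3.96, 15.4, 12.5 and 14.3 CPM in Tsc1CKO and 3.86, 5.38, 6.36, 3.4 and 5.76 CPM in controls (1.24 ± 0.31, adjusted p = 0.0952). It was high in 4 Tsc1CKO libraries and at the control level in replicate 2, and its counts may be shared with a near-identical copy. Vim, an intermediate filament of immature and reactive astrocytes (0.59 ± 0.18, adjusted p = 0.13), and the signal transducer Stat3 (0.25 ± 0.08, adjusted p = 0.12) overlapped between groups. Matrix and synaptogenic factors that astrocytes secrete were positive in 15 of 19, with a median of 0.39, against 0.42 without Tsc1CKO replicate 2, 0.28 without Control replicate 4 and 0.37 without both. Prelp was the 1 member called with all libraries, where 0.0407% of all genes were. Without Tsc1CKO replicate 2, 8 were called higher, against 2.93% of all genes. The proteoglycan neurocan, Ncan, was at 340.0, 309, 352, 303 and 317 CPM in Tsc1CKO and 249, 242, 248, 202 and 277 CPM in controls (0.41 ± 0.08, adjusted p = 0.0583). All 5 Tsc1CKO values, replicate 2 included, were above all controls, as they were for the phagocytic receptor Mertk (0.51 ± 0.11, adjusted p = 0.0645).

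Genes of lipid metabolism are given by pathway. Among genes of fatty acid synthesis and oxidation 26 of 30 were positive (median 0.23, against 0.25 without Tsc1CKO replicate 2, 0.18 without Control replicate 4 and 0.21 without both), and Acacb was called with all libraries. Without Tsc1CKO replicate 2, 7 were called higher, against 2.93% of all genes. Cpt1a, which imports fatty acids into mitochondria, was at 36 to 51.7 CPM in Tsc1CKO and 22.4 to 37.9 CPM in controls (0.58 ± 0.13, adjusted p = 0.0712), and overlapped through replicate 2. Cholesterol synthesis genes were positive in 19 of 23, with a median of 0.10 (from 0.061 without Tsc1CKO replicate 5 to 0.14 without Control replicate 3 in fits that leave out 1 library). On the higher side 5 had an unadjusted p under 0.05, with 0 called by edgeR, 2 by DESeq2 and 0 by limma voom. Of these, the sterol desaturase Sc5d (0.44 ± 0.11, adjusted p = 0.0834), the sterol sensor Insig1 (0.44 ± 0.13, adjusted p = 0.117) and lanosterol synthase, Lss (0.21 ± 0.08, adjusted p = 0.175), had the smallest p.

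Other glial classes also had positive medians. All 15 oligodendrocyte precursor markers were positive (median 0.35, against 0.35 without Tsc1CKO replicate 2, 0.27 without Control replicate 4 and 0.32 without both). EdgeR called 0 of them, DESeq2 2 and limma voom 0, and 8 were higher at an unadjusted p under 0.05. Their mean log2 CPM was 5.15, 4.63, 4.85, 4.73 and 4.81 in Tsc1CKO replicates 1 to 5 and 4.67, 4.54, 4.61, 4.20 and 4.58 in controls, highest in Tsc1CKO replicate 1 and lowest in Control replicate 4. The receptor Gpr17 (0.45 ± 0.12, adjusted p = 0.0966), the regulator Sox10 (0.47 ± 0.14, adjusted p = 0.116) and the proteoglycan Cspg4 (0.43 ± 0.13, adjusted p = 0.122), which pericytes also express, had the smallest p. Mature oligodendrocyte and myelin genes had a median of 0.058 (from 0.0024 without Tsc1CKO replicate 1 to 0.13 without Tsc1CKO replicate 2 in fits that leave out 1 library), with 16 of 21 positive. At an unadjusted p under 0.05, 5 were higher, and edgeR called 0, DESeq2 1 and limma voom 0. A further 1 was lower at that p, and DESeq2 called 0 lower. The actin-severing protein Gsn (0.44 ± 0.12, adjusted p = 0.0968) and the hydroxylase Fa2h (0.42 ± 0.15, adjusted p = 0.166) were on the higher side, and the aspartoacylase Aspa (-0.33 ± 0.11, adjusted p = 0.134) was on the lower side.

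Homeostatic microglia markers were positive in 17 of 19 (median 0.36, against 0.41 without Tsc1CKO replicate 2, 0.26 without Control replicate 4 and 0.31 without both). The calls were 0 with edgeR, 4 with DESeq2 and 0 with limma voom, while 10 were higher at an unadjusted p under 0.05. Here all 5 Tsc1CKO libraries had a list mean above every control, at 5.03, 4.72, 4.76, 4.72 and 5.07 against 4.62, 4.68, 4.71, 4.18 and 4.54 log2 CPM, although replicate 2 and replicate 4 were close to the highest control. The adhesion ligand Selplg (0.52 ± 0.12, adjusted p = 0.0817) and the microglial regulator Sall1 (0.43 ± 0.10, adjusted p = 0.0853) were next to Mertk, a member given above, in order of p. Activated microglia and complement genes were positive in 18 of 24 and negative in 6. Among the negative were Clec7a (-0.30 ± 0.42), Cd52 (-0.16 ± 0.32) and Lyz2 (-0.05 ± 0.20), each within its SE of 0. The median of the list was 0.20, against 0.21 without Tsc1CKO replicate 2, 0.11 without Control replicate 4 and 0.16 without both. On the higher side 6 had an unadjusted p under 0.05, with 0 called by edgeR, 3 by DESeq2 and 0 by limma voom. Cd63, a tetraspanin of endosomes, was at 20.7, 14.2, 18.5, 21.5 and 27.7 CPM in Tsc1CKO and 10.4 to 14.9 CPM in controls (0.68 ± 0.15, adjusted p = 0.0712), and the lipid carrier Apoe overlapped through replicates 2 and 3 (0.55 ± 0.18, adjusted p = 0.146). Aif1, a general microglial marker, did not differ beyond its spread (-0.04 ± 0.17, adjusted p = 0.931).

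On the endothelial list replicate 2 lay with its own group. Of 29 endothelial markers, 26 were positive, and the median was 0.34, against 0.27 without Tsc1CKO replicate 2, 0.21 without Control replicate 4 and 0.19 without both. EdgeR called 0 of them, DESeq2 8 and limma voom 0, and 14 were higher at an unadjusted p under 0.05. The list mean was 5.25, 5.11, 5.05, 5.21 and 5.21 log2 CPM in Tsc1CKO and 4.90, 5.02, 5.002, 4.40 and 4.86 in Control replicates 1 to 5. All Tsc1CKO libraries were above all controls. Groups did not overlap for 6 of the 29, beside 1.68% of all genes in that direction. DESeq2 called 2.79% of all genes higher, and 1448 of 14754 were higher at an unadjusted p under 0.05. Tie1, an endothelial receptor kinase, was at 19.4, 16.3, 17.9, 19.4 and 18.7 CPM in Tsc1CKO and 10.7, 14.7, 13.7, 9.34 and 12 CPM in controls (0.60 ± 0.12, adjusted p = 0.0583). The von Willebrand factor gene Vwf (0.72 ± 0.14, adjusted p = 0.0583) and the VEGF receptor Kdr (0.81 ± 0.18, adjusted p = 0.0817) were likewise separated. Pericyte and smooth muscle markers were positive in 14 of 17, though the members Rgs5 (0.03 ± 0.13) and Acta2 (0.02 ± 0.23) were near 0. Tagln was negative (-0.21 ± 0.15). The median of the list was 0.26, against 0.27 without Tsc1CKO replicate 2, 0.18 without Control replicate 4 and 0.18 without both. At an unadjusted p under 0.05, 4 were higher, and edgeR called 0, DESeq2 2 and limma voom 0. Pdgfrb, the pericyte growth factor receptor, was at 39.5, 29.4, 43.3, 35.8 and 38.6 CPM in Tsc1CKO and 20.7, 27.6, 28.6, 20.9 and 21.5 CPM in controls (0.65 ± 0.12, adjusted p = 0.0583), and the channel subunit Abcc9 was also without overlap (0.44 ± 0.13, adjusted p = 0.106).

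Meningeal fibroblasts adjoin the tissue that was taken, and their markers were listed beside the vascular ones. Their list mean was 3.31, 3.20, 3.39, 3.36 and 3.30 log2 CPM in Tsc1CKO and 2.70, 3.56, 3.19, 2.18 and 3.16 in Control replicates 1 to 5, lowest in Control replicates 4 and 1 and highest in Control replicate 2. Of 21 members 19 were positive (median 0.25, against 0.30 without Tsc1CKO replicate 2, 0.16 without Control replicate 4 and 0.13 without both). In fits that leave out 1 library the median ran from 0.16 without Control replicate 4 to 0.43 without Control replicate 2. The calls were 0 with edgeR, 0 with DESeq2 and 0 with limma voom, while 4 were higher at an unadjusted p under 0.05. The collagens Col1a1 (0.58 ± 0.20, adjusted p = 0.157) and Col1a2 (0.51 ± 0.19, adjusted p = 0.178) and the matrix protein Aebp1 (0.64 ± 0.23, adjusted p = 0.168) had the smallest p. Control replicate 4 was thus lowest for meningeal, vascular and astrocyte lists alike, and the median of each list without that library is given with it above.

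Developmental signalling genes followed the glial lists. Of 36 genes of the Notch, Hedgehog, Wnt and BMP pathways, 29 were positive (median 0.21, against 0.25 without Tsc1CKO replicate 2, 0.15 without Control replicate 4 and 0.18 without both). On the higher side 13 had an unadjusted p under 0.05, with 0 called by edgeR, 5 by DESeq2 and 0 by limma voom. Of all genes, DESeq2 called 2.79% higher. Without Tsc1CKO replicate 2, 7 of the list were called higher, against 2.93% of all genes. The receptor Notch1 was at 54.5, 39.7, 43.8, 39.6 and 38.9 CPM in Tsc1CKO and 31.2, 33.7, 34.1, 30.1 and 35.7 CPM in controls (0.39 ± 0.10, adjusted p = 0.0847), with no overlap. Its ligand Jag1 (0.59 ± 0.14, adjusted p = 0.0817) overlapped in replicate 2, and the inhibitory Smad6 (0.78 ± 0.20, adjusted p = 0.0952) did not overlap but was low. Cell cycle genes had 21 of 26 positive, with a median of 0.16 (from 0.092 without Control replicate 1 to 0.21 without Tsc1CKO replicate 3 in fits that leave out 1 library). EdgeR called 0 of them, DESeq2 2 and limma voom 0, and 3 were higher at an unadjusted p under 0.05. A further 2 were lower at that p, and DESeq2 called 0 lower. The smallest p belonged to cyclins that drive entry into the cycle. Ccnd1 was at 78.6, 43, 69, 63 and 89.3 CPM in Tsc1CKO and 44.8, 41.5, 38.6, 27.6 and 44.2 CPM in controls (0.80 ± 0.18, adjusted p = 0.0848), and Ccnd2 had 0.67 ± 0.20, adjusted p = 0.128. Ccne2, which acts later at the start of DNA synthesis, was on the other side (-0.44 ± 0.19, adjusted p = 0.232).

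The transcripts of the TSC and mTOR pathway itself were centred on 0, with 22 of 42 positive and a median of 0.011 (from -0.013 without Tsc1CKO replicate 4 to 0.026 without Control replicate 2 in fits that leave out 1 library). EdgeR called 0, 2 were higher at an unadjusted p under 0.05, DESeq2 called 1 and limma voom 0, and 4 were lower at an unadjusted p under 0.05. Its most separated member was Sesn3, a sestrin that restrains mTOR complex 1, at 95.1, 50.4, 82.8, 90.4 and 102 CPM in Tsc1CKO and 50.03, 46.2, 46.7, 46.5 and 52.7 CPM in controls (0.80 ± 0.15, adjusted p = 0.0583). In 4 Tsc1CKO libraries it was above every control, and in replicate 2 it was inside the control range. The cap-binding factor Eif4e (-0.26 ± 0.08, adjusted p = 0.123) and the Rag GTPase Rraga (-0.20 ± 0.08, adjusted p = 0.173) were on the lower side.

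Of the processes downstream of mTOR, lysosome and autophagy genes had 23 of 39 positive (median 0.096, against 0.11 without Tsc1CKO replicate 2, 0.076 without Control replicate 4 and 0.11 without both). In fits that leave out 1 library the median ran from 0.058 without Tsc1CKO replicate 1 to 0.11 without Tsc1CKO replicate 2. At an unadjusted p under 0.05, 10 were higher, and edgeR called 0, DESeq2 4 and limma voom 0. A further 3 were lower at that p, and DESeq2 called 1 lower. Tpp1, a lysosomal peptidase, was at 120.1, 89.9, 105, 117 and 110.2 CPM in Tsc1CKO and 82.1, 79.5, 84.8, 68.1 and 73.5 CPM in controls (0.48 ± 0.09, adjusted p = 0.0583), with no overlap. The cholesterol exporter Npc1 overlapped in replicate 2 alone (0.48 ± 0.09, adjusted p = 0.0583). Atg5, a core autophagy gene, was lower in every Tsc1CKO library than in any control (-0.31 ± 0.09, adjusted p = 0.098). The ATF4 and amino acid response list had 22 of 31 positive (median 0.10, against 0.13 without Tsc1CKO replicate 2, 0.076 without Control replicate 4 and 0.11 without both). The calls were 0 with edgeR, 2 with DESeq2 and 0 with limma voom, while 8 were higher at an unadjusted p under 0.05. A further 3 were lower at that p, and DESeq2 called 1 lower. Its leading members differed in sign. Slc7a11 and the cystathionine lyase Cth (0.82 ± 0.17, adjusted p = 0.0613) were on the higher side. The asparagine synthetase Asns was on the lower, at 62.1, 55.4, 65.2, 53.4 and 56.9 CPM in Tsc1CKO and 77.8, 71.6, 76.6, 72.7 and 60.4 CPM in controls (-0.29 ± 0.08, adjusted p = 0.0996). In the list of mRNA decay factors that holds Zfp36l2, 16 of 29 were positive, with a median of 0.029 (from -0.032 without Tsc1CKO replicate 3 to 0.035 without Tsc1CKO replicate 1 in fits that leave out 1 library). Of these 1 was called, and the deadenylase subunit Cnot7 was at -0.24 ± 0.08 (adjusted p = 0.138).

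**Figure D4:**
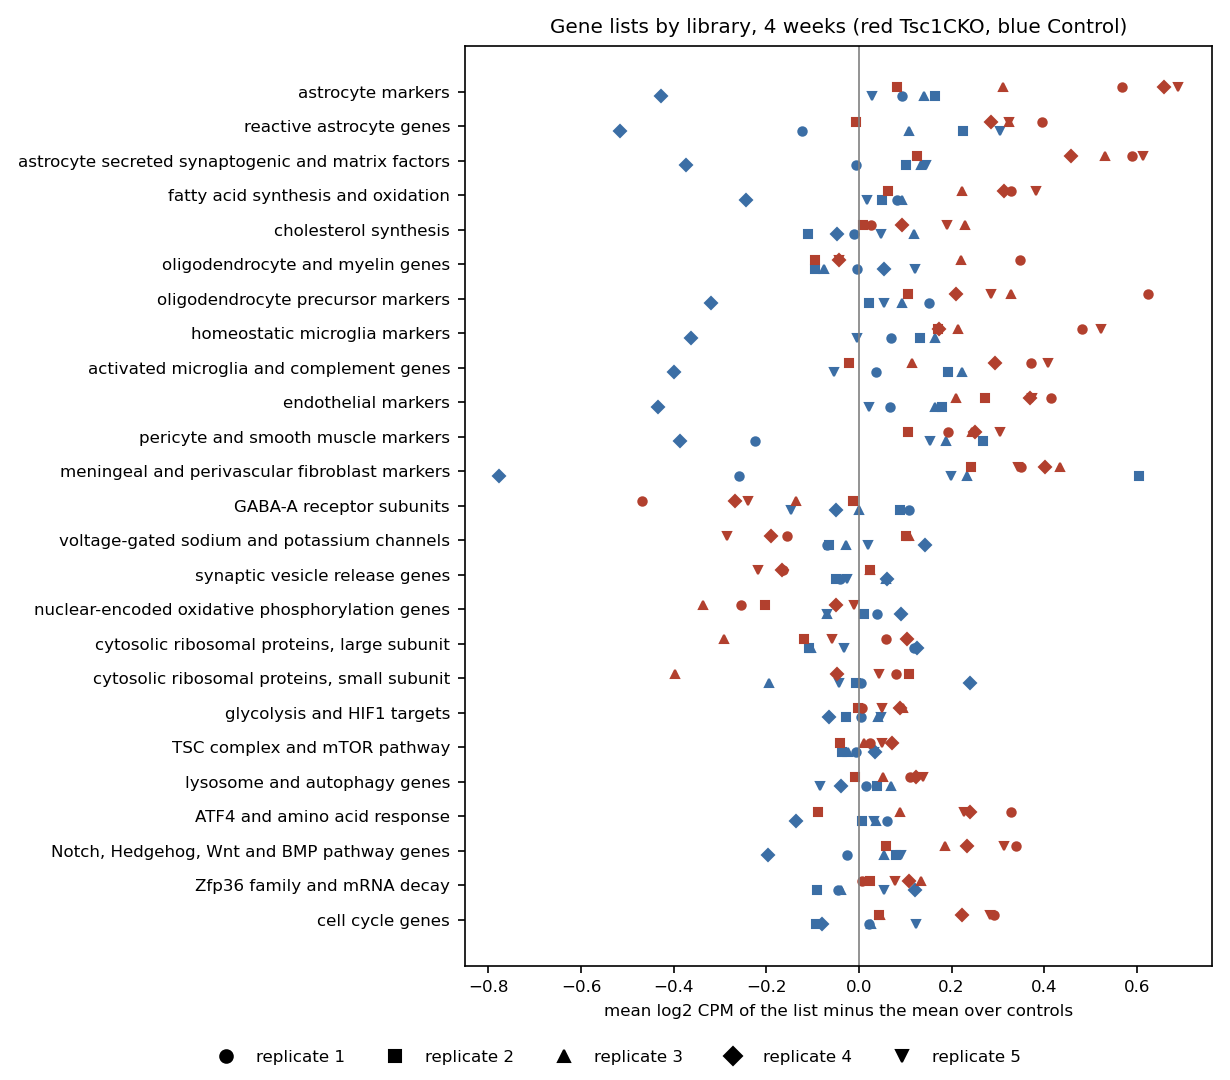
Mean log2 CPM of each gene list in each library, minus the mean over the 5 controls, with Tsc1CKO in red above and Control in blue below on each line and 1 marker shape per replicate number. On the astrocyte line 4 red markers lie to the right of all blue ones, the red square of Tsc1CKO replicate 2 lies among the controls, and the blue diamond of Control replicate 4 lies far to the left.

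Neuronal lists had negative medians. They were -0.10 for excitatory neuron, -0.095 for upper layer, -0.16 for deep layer and -0.062 for interneuron markers. In that order 18 of 23, 13 of 16, 13 of 18 and 18 of 28 members were negative. EdgeR and DESeq2 called 0 of these members with all libraries. The interneuron median reached -0.0035 in fits that leave out 1 library. Medians of channels and synaptic vesicle genes were nearer 0 with all libraries. Without Tsc1CKO replicate 2 the channel median was -0.12, beside -0.12 for excitatory neuron and -0.079 for interneuron markers. Of 12 GABA-A receptor subunits, 11 were negative with a median of -0.25, against -0.34 without Tsc1CKO replicate 2, -0.23 without Control replicate 4 and -0.33 without both. In fits that leave out 1 library it ran from -0.34 without Tsc1CKO replicate 2 to -0.17 without Tsc1CKO replicate 1. On the lower side 5 had an unadjusted p under 0.05, with 0 called by edgeR, 4 by DESeq2 and 0 by limma voom. A further 1 was higher at that p, and DESeq2 called 0 higher. Without Tsc1CKO replicate 2, 4 were called lower, against 1.05% of all genes in that direction. Gabra4 was at 140.2, 229, 175, 212 and 217 CPM in Tsc1CKO and 291, 285, 268, 262 and 224 CPM in controls (-0.45 ± 0.12, adjusted p = 0.0966). It was lowest in Tsc1CKO replicate 1 and overlapping between the groups through Tsc1CKO replicate 2 and Control replicate 5. Gabra3 (-0.31 ± 0.08, adjusted p = 0.0952) also overlapped. Voltage-gated sodium and potassium channels were negative in 21 of 27, with a median of -0.037 (from -0.12 without Tsc1CKO replicate 2 to -0.0027 without Tsc1CKO replicate 5 in fits that leave out 1 library). EdgeR called 0 of them, DESeq2 1 and limma voom 0, and 3 were lower at an unadjusted p under 0.05. Among them Scn1a, the sodium channel of fast-spiking interneurons, had -0.35 ± 0.11, adjusted p = 0.127, and the potassium channels Kcnh7 and Kcnq5 had -0.36 ± 0.11, adjusted p = 0.118 and -0.21 ± 0.09, adjusted p = 0.222. Synaptic vesicle genes were negative in 21 of 27, with a median of -0.042 (from -0.092 without Tsc1CKO replicate 3 to -0.037 without Tsc1CKO replicate 5 in fits that leave out 1 library). At an unadjusted p under 0.05, 5 were lower, and edgeR called 0, DESeq2 1 and limma voom 0. The smallest p belonged to the vesicle protein Synpr (-0.47 ± 0.13, adjusted p = 0.0966), Rab3a (-0.20 ± 0.07, adjusted p = 0.165) and the fusion factor Napb (-0.32 ± 0.12, adjusted p = 0.168).

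Nuclear genes of mitochondrial respiration had negative differences in nearly every case. Of 66 nuclear-encoded oxidative phosphorylation genes, 62 were negative, with a median of -0.16, against -0.16 without Tsc1CKO replicate 2, -0.13 without Control replicate 4 and -0.13 without both. The calls were 0 with edgeR, 9 with DESeq2 and 0 with limma voom, while 26 were lower at an unadjusted p under 0.05. DESeq2 called 1.67% of all genes lower, and 1321 of 14754 were lower at that unadjusted p. The edgeR fit without Tsc1CKO replicate 2 called 0 of the 66 lower, against 1.05% of all genes in that direction. The list mean was 6.22, 6.28, 6.14, 6.43 and 6.47 log2 CPM in Tsc1CKO and 6.52, 6.49, 6.41, 6.57 and 6.41 in Control replicates 1 to 5. On this list replicate 2 was below every control while replicates 4 and 5 were not. Ndufa4, a subunit of the respiratory chain, was at 219.9, 260.2, 223, 279.8 and 286 CPM in Tsc1CKO and 352, 319, 286, 378 and 299 CPM in controls (-0.37 ± 0.10, adjusted p = 0.0952). The highest Tsc1CKO value was level with the lowest control. Ndufv2 (-0.33 ± 0.09, adjusted p = 0.0952) and Atp5f1 (-0.33 ± 0.09, adjusted p = 0.0971) had differences of similar size.

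Cytosolic ribosomal protein genes were negative in 30 of 43 for the large subunit, with a median of -0.11 (from -0.16 without Tsc1CKO replicate 4 to -0.043 without Tsc1CKO replicate 3 in fits that leave out 1 library). For the small subunit 24 of 32 were negative, with a median of -0.16 (from -0.22 without Tsc1CKO replicate 4 to -0.078 without Tsc1CKO replicate 3 in fits that leave out 1 library). For the large subunit, 7 were lower at an unadjusted p under 0.05, and edgeR called 0, DESeq2 1 and limma voom 0. For the small, 4 were lower at that p, and the same tools called 0, 1 and 0. Of all genes, DESeq2 called 1.67% lower, so a single call in a list of this size is near the background. Tsc1CKO replicate 3 had the lowest level of both lists. Rpl15 (-0.38 ± 0.10, adjusted p = 0.0952), Rpl32 (-0.31 ± 0.10, adjusted p = 0.122), Rpl27a (-0.26 ± 0.09, adjusted p = 0.142), Rps25 (-0.45 ± 0.13, adjusted p = 0.104) and Rps24 (-0.27 ± 0.10, adjusted p = 0.163) were among those with the smallest p, and counts of such genes may be shared with pseudogenes. Glycolysis genes and HIF1 targets were positive in 14 of 26, with a median of 0.016 (from -0.015 without Control replicate 4 to 0.038 without Tsc1CKO replicate 1 in fits that leave out 1 library). EdgeR called 0 of them, 3 were higher and 1 lower at an unadjusted p under 0.05, and DESeq2 called 1 higher and 1 lower. The mitophagy receptor Bnip3 was at 57.2, 76.5, 66.4, 76.9 and 78.4 CPM in Tsc1CKO and 115, 96, 89.7, 107 and 84.3 CPM in controls (-0.47 ± 0.10, adjusted p = 0.0656). All Tsc1CKO values were below all controls. Pdk4, which diverts pyruvate from oxidation, was on the higher side at 19.5 to 46.2 CPM against 11.6 to 22.7 CPM (0.99 ± 0.24, adjusted p = 0.0952), as was the astrocyte aldolase Aldoc (0.37 ± 0.12, adjusted p = 0.128).

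Activity markers overlapped widely between groups. The early gene Fos ranged from 18 to 99.2 CPM in Tsc1CKO and from 7.7 to 125 CPM in controls (0.18 ± 0.79, adjusted p = 0.928), and the spread within each group exceeded the difference. Npy, a peptide that seizures induce, was at 65.9 to 90.3 CPM and 68.3 to 102 CPM (-0.05 ± 0.11, adjusted p = 0.852), with an interval of 2 SE on either side from -0.28 to 0.17.

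The authors' deposited table for this age lists 594 genes, 372 higher and 222 lower. DESeq2 refitted to the deposited counts called the same 594 genes and matched every fold change within 0.001. All 6 genes that edgeR called are among them, and so are 412 of the 421 that edgeR gave at an adjusted p under 0.1 (2.85% of genes tested, 1.97% higher and 0.888% lower). The number called without Tsc1CKO replicate 2 is also 594, but of those genes 413 are shared with the DESeq2 calls, 69.5% of each list. In the authors' deposited table the highest fold changes belong to Rnase1 (4.16 ± 0.97, adjusted p = 0.00266), Thbs4 (3.47 ± 0.75, adjusted p = 0.000875) and Agxt2l1 (2.80 ± 0.46, adjusted p = 3.16e-06), on the log2 scale with SE. In that table the lowest belong to Gm19522 (-0.78 ± 0.25, adjusted p = 0.0454), 9330179D12Rik (-0.75 ± 0.24, adjusted p = 0.0456) and Synj2 (-0.75 ± 0.19, adjusted p = 0.00533). Synj2, a phosphatase of phosphoinositides, was at 51.4, 50.1, 53.6, 39.9 and 33.4 CPM in Tsc1CKO and 107, 57, 52.8, 73.6 and 92.4 CPM in controls. The groups overlapped, and edgeR gave -0.74 ± 0.20, adjusted p = 0.111.

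Libraries of the later age share no sample with these, so the 4-week genes could be set beside them. Of the 437 genes called higher without Tsc1CKO replicate 2, 434 were tested at 15 weeks, and 400 of those (92.2%) had positive differences there, beside 52.3% of all genes. Called higher at both ages were 172, which is 39.4% of the 4-week genes and 34.1% of the 504 called higher at 15 weeks (3.36% of genes tested at that age). Of the 157 called lower at 4 weeks, 95 (60.5%) were negative at 15 weeks, and 7 were called lower at both ages, 4.46% of the 4-week genes and 11.1% of the 63 at 15 weeks (0.42%). All 7 genes described above on which replicate 2 stood at the control level were called at 15 weeks, among them Rnase1 (4.53 ± 0.42, adjusted p = 0.00358), Icosl (2.28 ± 0.26, adjusted p = 0.00467) and Pcsk6 (1.38 ± 0.20, adjusted p = 0.0129). These 7 were chosen with such results known.

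None of the 6 genes called at 4 weeks passed at 15 weeks, where the groups are smaller. The differences there were 1.30 ± 0.30, adjusted p = 0.0514 for Acacb, 0.68 ± 0.34, adjusted p = 0.242 for Prelp, 0.46 ± 0.15, adjusted p = 0.107 for Zfp36l2, 0.37 ± 0.16, adjusted p = 0.199 for Bcar3, 0.27 ± 0.31, adjusted p = 0.599 for Cmya5 and 0.15 ± 0.31, adjusted p = 0.785 for 1700019G17Rik. The difference between ages itself was tested as the interaction of genotype and age over all 17 libraries, and for these 6 its adjusted p lay between 0.137 and 0.932. In all, 33 genes had an interaction (0.213% of 15492), a count that was 3503 without the 15-week Tsc1CKO replicate 4 and 4 to 26 without any 1 of the other libraries. Of the genes named here it was called for Gfap, whose difference was 4.23 ± 0.55 (adjusted p = 0.00396) larger at 15 than at 4 weeks on the log2 scale, and Gsn (1.26 ± 0.23, adjusted p = 0.0388).

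**Figure D5:**
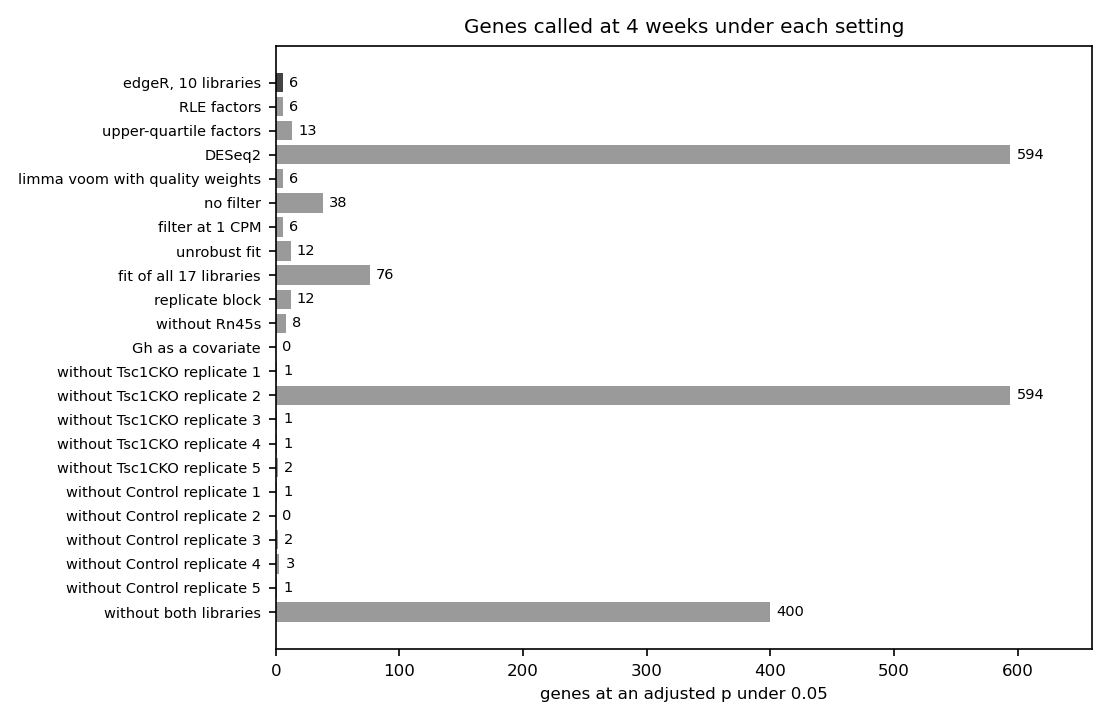
Number of genes at an adjusted p under 0.05 at 4 weeks in the edgeR fit of the 10 libraries (dark bar) and under each other setting (grey bars). DESeq2 and the fit without Tsc1CKO replicate 2 each gave 594, the fit without both doubted libraries 400, and leaving out any 1 of the other 9 libraries 0 to 3.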

How the data were processed

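Poly-A RNA of 10 cortex samples at 4 weeks (5 Tsc1CKO, 5 Control, grouped by title) was compared. Per the labels, RNA with an integrity number of at least 9.8 went into libraries made with an Illumina TruSeq kit and was read in 100 bases on a HiSeq 2000. Per the labels, base calls were converted with bcl2fastq 1.8.4, and Tophat 2.0.4 mapped the reads to mm9. How reads were counted per gene (tool, annotation, strand) is not given in the sources used here. Genes that overlap, lie antisense to each other or have near-identical copies are therefore uncertain.

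The deposited table gives whole read counts, which the authors did not normalize, for 23284 gene symbols. Some 25 symbols appear as dates and stayed in the fits as they are. The count header stands 1 place off its columns, so columns were taken by number and checked against the authors' normalized signal, which is the counts of each of the 17 libraries times a constant. The authors' deposited 4-week table holds their log2 fold changes with SE, and p-values adjusted by DESeq2, listed under 0.05.

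Fits used edgeR 4.0.16 in R 4.3.3 (TMM factors, filterByExpr by group, robust quasi-likelihood test, Benjamini-Hochberg adjustment over all genes tested). SE is the size of the log2 fold change over the square root of F. Log2 CPM used a prior count of 2. The ribosomal RNA gene Rn45s took 2.43% to 5.68% of counts. Over 20 replicate pairs, chi-square per degree of freedom was 7.14 to 32.1, so no library was treated as a repeat of another. Tools for alternatives were DESeq2 1.42.0 and limma 3.58.1. The fitting code was tested on simulated data.

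The members, the 39 gene lists (25 described) and the tests were chosen with earlier results of these data known. Lists are described by counts and medians. Named genes were Tsc1 and Tsc2, all edgeR calls, the 10 largest positive and 10 lowest negative differences with no overlap between groups, up to 3 genes per described list by smallest p, 9 glial and neuronal genes, the 3 highest and 3 lowest fold changes of the authors' deposited table, Rn45s and Gh. A further 7, said in the text to be chosen later, were Pcsk6, Gm5424, Icosl, Bdh2, Thrsp, Lif and Vcl. Of the genes this rule names, 4 are not reported here, though the lists count them. Positions are those of GENCODE vM1 (mm9).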

Additional observations from a re-analysis of the deposited data

Results flagged for a closer look

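In groups of 5 libraries, a value was looked at again where its gap to the nearest of the others, over the group's whole range on the log2 CPM scale, exceeded 0.71, Dixon's 95% critical value. Chance alone gives this in about 1 in 20 groups, and 222 groups were checked, of which 19 exceeded it.

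Tsc1CKO replicate 2 was far below the other 4 Tsc1CKO libraries for 1700019G17Rik (gap over range 0.804), Bcar3 (0.773), C4b (0.848), Gfap (0.782), Thbs4 (0.802), Rnase1 (0.842), Pcsk6 (0.721), Icosl (0.765) and Bdh2 (0.839). The last 3 had been chosen because this library was at the control level there.

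Control replicate 4 was far below the other controls for the astrocyte genes Gfap (0.776), Aqp4 (0.895), Slc1a2 (0.879), Slc1a3 (0.742) and Gja1 (0.746), and for Slc7a11 (0.776) and Gm4980 (0.808). Control replicate 5 was far below the others for Padi2 (0.785), and far above them for Fa2h (0.867) and Thbs4 (0.764).

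The effect of genotype differed between ages, by the test of the interaction, for Gfap and Gsn. It was larger at 15 weeks by 4.23 for Gfap and by 1.26 for Gsn on the log2 scale.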

How the results depend on the processing

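The 6 genes called at 4 weeks were 6 with RLE factors, with limma voom and with a filter at 1 CPM, and 8 without Rn45s. The count moved to 13 with upper-quartile factors, 12 in an unrobust fit, 38 with no filter, 76 in a fit of all 17 libraries, 594 with DESeq2, 421 at an adjusted p under 0.1 and 0 with Gh as a covariate, where the adjusted p of the 6 lay between 0.0556 and 0.0985. Leaving out 1 library gave 0 to 594, with 594 only without Tsc1CKO replicate 2 and 0 only without Control replicate 2. Leaving out both Tsc1CKO replicate 2 and Control replicate 4, chosen after seeing the data, gave 400, of which 382 were among those 594. The cause of these moves was not tested, except that a looser threshold calls more genes. The 6 genes stayed positive in all 22 alternative fits.

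With the replicate number as a block (replicate block), 12 genes were called at 4 weeks and 2717 had an interaction. The numbers did not pair the samples: deviations of same-numbered libraries correlated at 0.0556, -0.117, 0.0381, -0.0375 and -0.0714, and 0 of 5 matched best with their own number. The 33 interactions became 1041 with DESeq2, 19 with no filter and 4 to 3503 on leaving out 1 library. The log2 difference of Tsc1 was 0.0025 without a scaling factor and -0.038 to 0.045 on leaving out 1 library, and in the edgeR fit 0.0087 with upper-quartile factors, 0.034 with Gh as a covariate and -0.042 to 0.036 on leaving out 1 library. On leaving out 1 library, Aif1 ranged from -0.13 to 0.059, Fos from -0.13 to 0.88 and Npy from -0.12 to 0.052. Of the 111 named genes' values in the other fits, 238 newly passed the threshold, 52 no longer passed, 15 changed sign, all of them for Tsc1, Aif1, Fos or Npy, and 2133 did neither. None of the 39 list medians moved by more than 1 SD of the list mean within a group. Leaving out 1 library can hardly move a list that far, so this bound does not show that the medians were stable. The reactive astrocyte median went from 0.20 to 0.10 without Control replicate 4. The median of the sodium and potassium channels went from -0.037 to -0.12 without Tsc1CKO replicate 2.

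Depth limits the comparison most for genes of low counts: Rnase1, Thbs4, Bdh2 and Lif had control values near or under 1 CPM, where single libraries hold few reads.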
